A study of Homo sapiens with 5 samples.

Results

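The genes described here encode the retinoblastoma pocket proteins (RB1, RBL1, RBL2), the E2F transcription factors E2F1, E2F2, E2F3, E2F7 and E2F8, and the dimerisation partners TFDP1 and TFDP2. They were chosen by name, and all 10 listed symbols had a named probe set, 1 each, among 14812 genes tested. Of 4 further family genes looked for, E2F4, E2F5, E2F6 and TFDP3, 0 had a named probe set, and they were not analysed here. Expression had been profiled on 5 single-colour arrays of LNCaP, an established human prostate cancer cell line. In 2 arrays the cells carried a scrambled short hairpin RNA (shControl), and in 3 arrays a hairpin against RB (shRB), each delivered by retrovirus with puromycin selection. Both groups had been irradiated with 10 Gy and harvested 24 h later, so every value refers to irradiated cells and no comparison with unirradiated cells was made. The labels name no separate cultures for the replicates and do not say whether the hairpin cells were clones or pools. All p-values rest on the spread among these arrays alone, and that spread may be technical.

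Pocket proteins bind E2F factors and recruit repressors to E2F-bound promoters. Phosphorylation by cyclin-dependent kinases releases them, and the freed E2F proteins then drive genes needed for S phase. E2F1, E2F2 and E2F3 act mainly as activators and bind DNA as heterodimers with a DP protein. E2F7 and E2F8 are atypical repressors that bind DNA without a DP partner. RBL1 (p107) and RBL2 (p130) join the MuvB core in the DREAM complex, which represses cell cycle genes in resting cells.

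In the shRB cells the RB1 transcript was lower on every array, and the E2F3 transcript was higher on every array. E2F8, E2F1 and TFDP1 also lay higher on every shRB array, by smaller amounts, and RBL1 lay lower. RBL2, E2F2, E2F7 and TFDP2 overlapped between the groups. None of the 10 genes passed limma's test adjusted over all genes at 0.05, against 1.07% of all genes tested, and 3 of them had an unadjusted p under 0.05 (RB1, E2F3 and E2F8), against 18.1% of all genes. Arrays did not overlap upwards for 4 of the 10, against 20.6% of all genes, and downwards for 2 of the 10, against 15.4%. In the family 5 differences were above 0 and 5 below, and their median was 0.02 on the log2 scale, and the median over all genes tested was 0.02 as well.

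**Figure D1:**
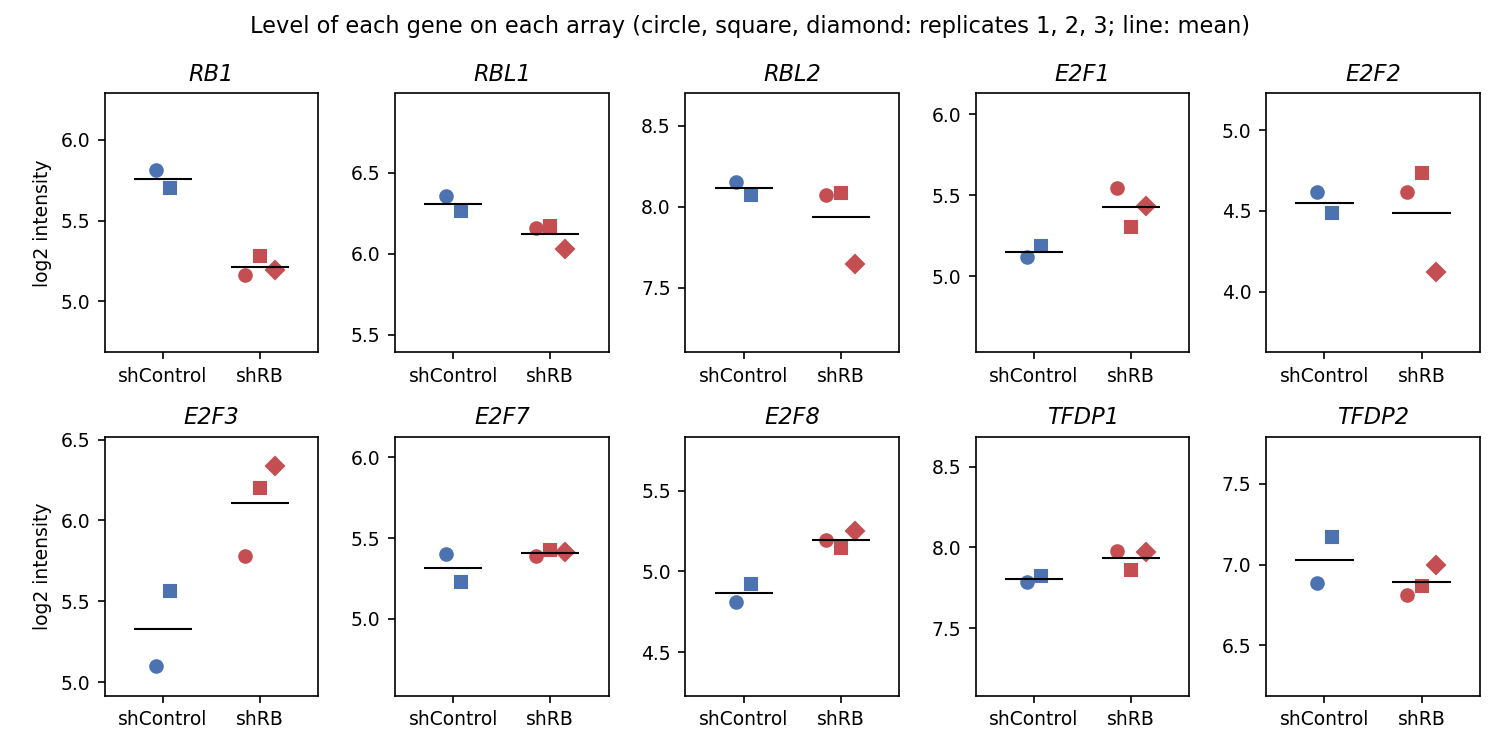
Log2 intensity (y axis) of each of the 10 genes on the 2 shControl and 3 shRB arrays, 1 panel per gene with the same span of the y axis but a different centre. Circles, squares and diamonds are replicates 1, 2 and 3 and the line is the group mean. RB1 on the shRB arrays (5.16 to 5.28) lies below both shControl arrays, and E2F3 on the shRB arrays (5.78 to 6.33) lies above both.

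Several of these genes are themselves known targets of E2F factors, so their promoter sequences are shown before their values. Windows of 300 bases, from 250 before to 50 after a transcript start, were taken from RefSeq (GRCh38.p14). They were searched on both strands for the E2F site in the forms TTTCCCGC, TTTCGCGC, TTTGCCGC and TTTGGCGC. Of the 10 genes, 9 had at least 1 window, in 13 windows, and E2F8 had none. The RB1 window belongs to a start inside the gene, 172699 bases from its 5′ end, so it does not describe the main RB1 promoter. A match was found for E2F1, E2F2, E2F3, RBL1 and TFDP1, in 5 of the 13 windows. Of all 35116 windows 3.31% held a match, and of all 27305 genes with a window 3.99%. The 135 bases before the start of those 5 genes are printed 5′ to 3′ on the gene's strand, with the matches in capitals; they lie at chr20:33686386-33686520 (minus strand) for E2F1, chr1:23531234-23531368 (minus) for E2F2, chr6:20401744-20401878 (plus) for E2F3, chr20:37095998-37096132 (minus) for RBL1 and chr13:113584618-113584752 (plus) for TFDP1.
E2F1: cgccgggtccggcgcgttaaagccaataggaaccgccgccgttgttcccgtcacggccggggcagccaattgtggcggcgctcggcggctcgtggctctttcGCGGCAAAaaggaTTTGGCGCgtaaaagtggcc
E2F2: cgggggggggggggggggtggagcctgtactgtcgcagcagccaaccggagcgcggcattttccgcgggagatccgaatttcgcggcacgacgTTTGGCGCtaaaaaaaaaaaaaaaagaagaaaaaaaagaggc
E2F3: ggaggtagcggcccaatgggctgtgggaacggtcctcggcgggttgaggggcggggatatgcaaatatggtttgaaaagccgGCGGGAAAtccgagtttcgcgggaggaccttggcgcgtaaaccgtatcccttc
RBL1: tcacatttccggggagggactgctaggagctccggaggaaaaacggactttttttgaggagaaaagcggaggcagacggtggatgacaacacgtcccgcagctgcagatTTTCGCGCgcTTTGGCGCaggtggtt
TFDP1: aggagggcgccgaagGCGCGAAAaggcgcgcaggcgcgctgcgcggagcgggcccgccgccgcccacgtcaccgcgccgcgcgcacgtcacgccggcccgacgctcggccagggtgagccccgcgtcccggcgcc

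E2F1 and RBL1 each carried 2 matches close together. In E2F1 they began 33 and 20 bases before the start, in the forms TTTGCCGC (on the opposite strand) and TTTGGCGC. In RBL1 they began 26 and 16 bases before it, as TTTCGCGC and TTTGGCGC. E2F2 had a TTTGGCGC that began 42 bases before the start. E2F3 had a TTTCCCGC on the opposite strand, first base 53 bases before the start of the upstream of its 2 RefSeq windows, and the window of the other start, 1735 bases further into the gene, had no match. TFDP1 had a TTTCGCGC on the opposite strand, first base 120 bases before the start. The transcript differences of these 5 genes went both ways: 0.78 for E2F3, 0.27 for E2F1, 0.13 for TFDP1, -0.06 for E2F2 and -0.19 for RBL1 on the log2 scale, none past the test. Across all tested genes, 578 with a match had a median difference of 0.02, with 7 called, and 10158 with a window but no match had a median of 0.02, with 101 called.

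RB1, on chromosome 13, encodes the pocket protein that the hairpin targets. Its log2 intensity was 5.81 and 5.70 on shControl replicates 1 and 2 and 5.16, 5.28 and 5.20 on shRB replicates 1 to 3. All 3 shRB arrays thus lay below both shControl arrays, and they varied among themselves by less than the gap between the groups. The mean was 5.76 ± 0.08 (SD, n = 2) in shControl and 5.21 ± 0.06 (SD, n = 3) in shRB, a log2 difference of -0.54 (SE 0.14, 95% interval -0.86 to -0.23), which did not pass limma's test (adjusted p = 0.0967). On the p ranking of all 14812 genes RB1 was number 467. On the deposited scale RB1 in shRB was at 0.69-fold of shControl (95% interval 0.55 to 0.86). The deposited intensities have a floor of 16, whose origin is not given. Taking 16 off, here and below, assumes that it is a constant added to every signal, which was not tested. On that assumption RB1 on shRB replicates 1, 2 and 3 stood at 52.0%, 60.2% and 54.2% of the shControl mean. Their mean was 55.5% ± 4.2 (SD, n = 3). In bulk RNA, fewer cells with a transcript and less of it per cell cannot be told apart, so these percentages may be an average over cells with different degrees of depletion. With dim genes left out of the fit, which leaves 7406 genes, the RB1 difference passed at an adjusted p of 0.0489. Over all alternatives its adjusted p ran from 0.0489 to 0.319, and the sign was negative in each.

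RBL1, the p107 gene on chromosome 20, read 6.35 and 6.27 in shControl and 6.16, 6.17 and 6.03 in shRB. Its shRB arrays all lay below the shControl arrays, but by a smaller step than those of RB1. The difference was -0.19 (SE 0.15, 95% interval -0.51 to 0.13, adjusted p = 0.527 by limma). That interval runs from 0.70-fold to 1.09-fold, so a 2-fold change in either direction lies outside it on the deposited scale.

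RBL2, the p130 gene on chromosome 16, read 8.15 and 8.07 in shControl and 8.07, 8.08 and 7.65 in shRB. Replicates 1 and 2 of shRB sat within the range of the controls, and replicate 3 was lower. The difference of -0.18 (95% interval -0.56 to 0.20, adjusted p = 0.619) shrank to -0.03 without shRB replicate 3. Neither RBL1 nor RBL2 was higher on any shRB array than on the highest shControl array.

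E2F3, on chromosome 6, encodes an activator E2F and had the largest difference of the 10 genes. Its log2 intensity was 5.10 and 5.56 on the shControl arrays and 5.78, 6.20 and 6.33 on the shRB arrays. The shRB arrays were all higher, yet both groups were spread widely, with shControl replicate 2 only a little below shRB replicate 1. The residual spread of E2F3 was larger than that of 90.6% of the genes tested. Its mean was 5.33 ± 0.33 (SD, n = 2) in shControl and 6.11 ± 0.29 (SD, n = 3) in shRB. The log2 difference was 0.78 (SE 0.20, 95% interval 0.34 to 1.22), or 1.71-fold on the deposited scale, and it did not pass limma's test (adjusted p = 0.0935). With 16 taken off, E2F3 on shRB replicates 1, 2 and 3 stood at 157%, 233% and 262% of the shControl mean, while the controls themselves stood at 73.8% and 126%. It passed with dim genes left out (adjusted p = 0.0438) and with an intensity trend and robust variances (adjusted p = 0.0409), but not without any 1 array, where the difference ran from 0.54 without shControl replicate 1 to 1.01 without shControl replicate 2.

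E2F1, on chromosome 20, encodes the activator best known for driving both S-phase entry and apoptosis. It read 5.12 and 5.19 in shControl and 5.54, 5.30 and 5.44 in shRB. The groups did not overlap, though shRB replicate 2 lay closer to the controls than the other two. The difference was 0.27 (SE 0.15, 95% interval -0.05 to 0.60, adjusted p = 0.359 by limma), so the deposited-scale ratio lay between 0.96-fold and 1.52-fold. With 16 taken off, the shRB arrays stood at 157%, 120% and 140% of the shControl mean.

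E2F2, on chromosome 1, is the third activator of this class. It read 4.62 and 4.49 in shControl and 4.62, 4.73 and 4.12 in shRB. All 5 values lay within 0.73 of the log2 floor of 4, and shRB replicate 3 lay only 0.12 above it, so the probe set was not shown to be above background. The difference of -0.06 (95% interval -0.48 to 0.35, adjusted p = 0.896) turned to 0.12 without shRB replicate 3.

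**Figure D2:**
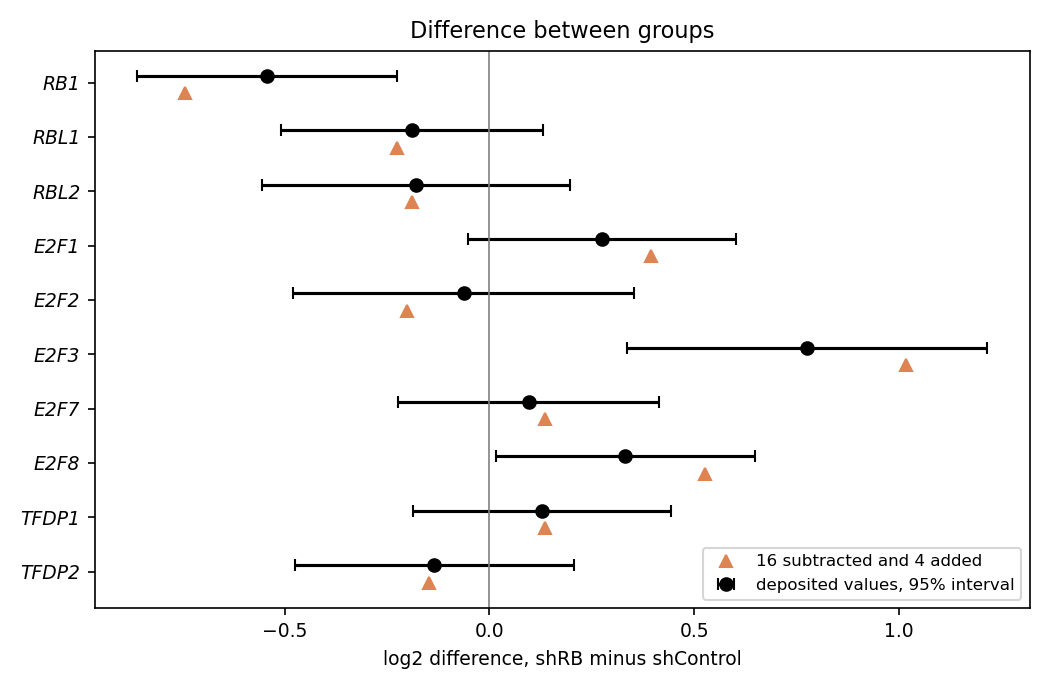
Log2 difference between shRB and shControl (x axis) for the 10 genes. Black points are limma estimates from the deposited values with 95% intervals, not adjusted for the number of genes, and triangles are the estimates with 16 subtracted and 4 added before the logarithm. The intervals of RB1, E2F3 and E2F8 do not include 0, and the triangles lie on the same side of 0 as the points.

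The atypical repressors gave a mixed reading. E2F8, on chromosome 11, read 4.81 and 4.92 in shControl and 5.19, 5.15 and 5.25 in shRB. The 3 shRB arrays lay close together and above both controls. The lowest E2F8 value, on shControl replicate 1, lay only 0.81 above the log2 floor of 4. The difference was 0.33 (SE 0.14, 95% interval 0.02 to 0.65, unadjusted p = 0.0416 and adjusted p = 0.256 by limma). With 16 taken off, the shRB mean was 157% ± 10 (SD, n = 3) of the shControl mean, and the log2 difference with 4 added back was 0.53.

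E2F7, on chromosome 12, read 5.40 and 5.23 in shControl and 5.39, 5.42 and 5.41 in shRB. The shRB arrays differed from each other by very little and overlapped with shControl replicate 1. The difference was 0.10 (95% interval -0.22 to 0.41, adjusted p = 0.768), a ratio between 0.86-fold and 1.33-fold. It was 0.18 without shControl replicate 1 and 0.01 without shControl replicate 2.

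Of the DP genes, which encode the DNA-binding partners of the classical E2F factors, TFDP1 on chromosome 13 read 7.79 and 7.83 in shControl and 7.98, 7.86 and 7.97 in shRB. All shRB arrays were higher, with replicate 2 only just above the controls. The difference was 0.13 (95% interval -0.19 to 0.44, adjusted p = 0.675). TFDP2, on chromosome 3, read 6.89 and 7.17 in shControl and 6.81, 6.87 and 7.0 in shRB. Its groups overlapped, with the highest value on shControl replicate 2, and the difference of -0.13 (95% interval -0.48 to 0.21, adjusted p = 0.690) was 0.01 without that array. For both DP genes a 2-fold change in either direction lay outside the interval on the deposited scale.

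**Figure D3:**
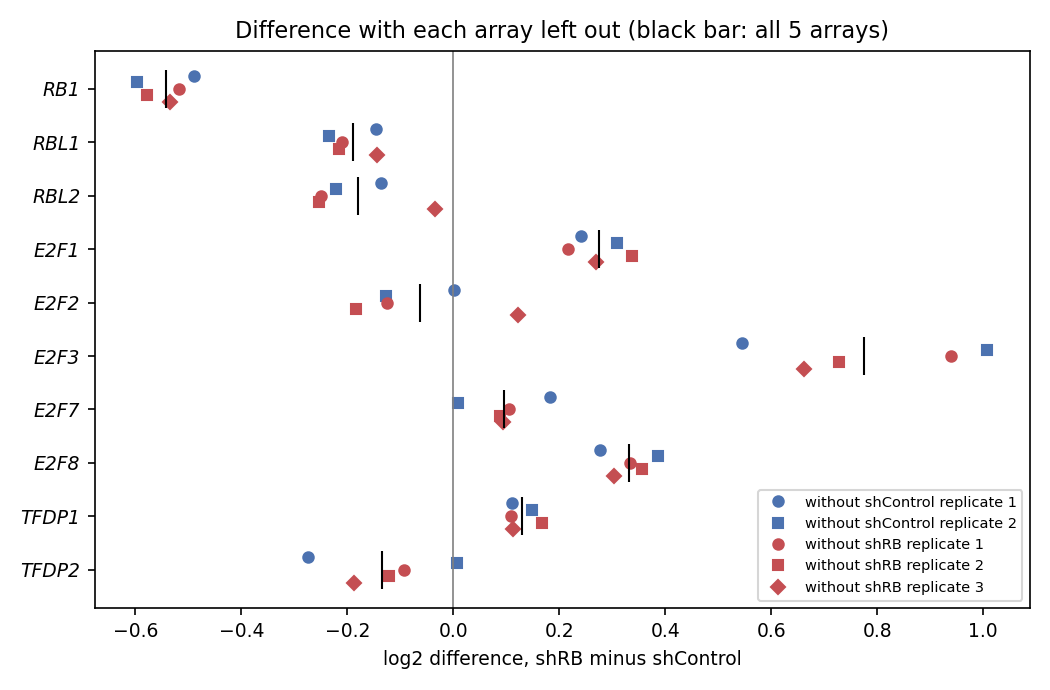
Log2 difference between shRB and shControl (x axis) for the 10 genes with each array left out in turn; blue symbols leave out a shControl array, red symbols a shRB array, and the black bar uses all 5 arrays. RB1 stays between -0.60 and -0.49, while E2F3 moves from 0.54 to 1.01 with the choice of the remaining shControl array.

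Whether relatives within the family changed unequally was tested with the log2 ratio of a pair of genes on the same array, for 6 pairs. With 2 arrays against 3, the smallest p that the exact permutation test can give is 0.1, so no pair could reach 0.05. The log2 ratio of RB1 to RBL1 was -0.55 and -0.56 in shControl and -0.999, -0.89 and -0.83 in shRB. The ratio was lower on every shRB array, with a difference of -0.35 (two-sided exact permutation p = 0.1, adjusted over the 6 pairs 0.20). Relative to RBL2 the RB1 difference was -0.36 (exact permutation p = 0.2, adjusted 0.24), and the arrays did not overlap either.

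E2F3 relative to E2F1 differed by 0.50 with overlapping arrays (exact permutation p = 0.3, adjusted 0.30). The pair of E2F3 and E2F2 was computed but is not read, because E2F2 was not shown to be above background. E2F7 relative to E2F8 differed by -0.24 and TFDP1 relative to TFDP2 by 0.26, both without overlap (exact permutation p = 0.1, adjusted 0.20, for each). The other 5 differences kept their sign with 16 subtracted and 4 added and with each array left out, but the size of 3 of them rests on the control arrays. Without shControl replicate 1 that of E2F7 to E2F8 was -0.09 and that of E2F3 to E2F1 0.30. Without shControl replicate 2 the E2F7 to E2F8 difference was -0.38 and that of TFDP1 to TFDP2 0.14.

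The kinases and inhibitors upstream of the pocket proteins, the complexes around them and the genes downstream were described with the same fit. In each of these 6 measured lists none of the genes passed limma's test adjusted over all genes, against 1.07% of all genes tested. Their counts at an unadjusted p under 0.05 are to be read beside the 18.1% of all genes.

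Upstream, 9 of 15 listed cyclin D and E kinase and CDK inhibitor genes were measured. The listed genes not measured were all CDK inhibitors, among them CDKN1A and CDKN1B, so CDKN2A was the only inhibitor measured. Of the 9 genes, 6 differed upward and 3 downward, with a median of 0.16 and 1 unadjusted p under 0.05. The median was 0.24 with dim genes left out, 0.09 without shControl replicate 1 and 0.10 without shRB replicate 3. The gene with that p was CCNE1, cyclin E1, whose kinase phosphorylates pocket proteins and which is itself an E2F target, at 6.52 ± 0.10 (SD, n = 2) in shControl and 7.05 ± 0.14 (SD, n = 3) in shRB (0.53, adjusted p = 0.112). CCNE2, cyclin E2, differed by 0.33 (adjusted p = 0.348), CCND3, a D-type cyclin, by 0.34 (adjusted p = 0.438), and CDKN2A, the locus of the CDK4 and CDK6 inhibitor p16, by 0.27 (adjusted p = 0.390). The shRB arrays of CCNE2 and of CCND3 overlapped with the controls. CDKN2A lay between 4.21 and 4.70 on the 5 arrays, as near the floor of 4 as E2F2, and was not shown to be above background.

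Of the MuvB core and its MYB and FOXM1 partners all 9 listed genes were measured, 5 positive and 4 negative, median 0.13, with 2 unadjusted p under 0.05. The median was 0.30 without shControl replicate 1 and 0.26 without shRB replicate 2, and turned to -0.07 without shControl replicate 2, to -0.01 without shRB replicate 1 and to -0.06 with dim genes left out. DYRK1A, the kinase that promotes DREAM assembly, stood at 7.24 ± 0.13 (SD, n = 2) in shControl and 6.67 ± 0.05 (SD, n = 3) in shRB, a difference of -0.57 (adjusted p = 0.0933). It passed with dim genes left out (adjusted p = 0.0458) and with an intensity trend and robust variances (adjusted p = 0.0419). LIN9, a MuvB subunit, differed by 0.39 (adjusted p = 0.204), LIN37, another, by 0.37 (adjusted p = 0.392), and MYBL1, A-MYB, by 0.32 (adjusted p = 0.314), with MYBL1 at 4.24 to 4.80 and thus near the floor as well. The shRB arrays of LIN37 overlapped with the controls.

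Of 17 listed co-repressors and other partners of pocket proteins 12 were measured, with 10 negative differences, a median of -0.19 and 2 unadjusted p under 0.05. EID1, an RB-binding inhibitor of histone acetylation, differed by -0.46 (adjusted p = 0.188), and HDAC3, a histone deacetylase, by -0.36 (adjusted p = 0.222). SIN3A, a scaffold of deacetylase complexes, differed by -0.27 (adjusted p = 0.346), and FZR1, the CDH1 activator of the anaphase-promoting complex, by -0.35 (adjusted p = 0.366). The FZR1 arrays overlapped between the groups. Its shControl replicate 1 (6.445) lay above shControl replicate 2 (5.770) and the shRB arrays (5.663 to 5.861). The median of the list was -0.08 with the mean of each gene's probe sets and -0.10 without shRB replicate 3. Over all genes tested 6837 of 14812 differences were negative. EID1 passed with an intensity trend and robust variances (adjusted p = 0.0335).

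Of 41 listed G1/S targets of E2F, 28 were measured, of which 18 differed upward and 10 downward, with a median of 0.12 and 5 unadjusted p under 0.05. CCNE1, counted here as well, had the smallest p. MCM4, a subunit of the replicative helicase, differed by 0.44 (adjusted p = 0.152), GINS2, a helicase cofactor, by 0.47 (adjusted p = 0.16), and CDC7, the kinase that fires origins, by 0.40 (adjusted p = 0.194). CDC6, the origin licensing factor, had the fifth of these p-values and went the other way (-0.35, unadjusted p = 0.0499), and is named here after its value was seen. The median was 0.06 without shControl replicate 1. The arrays of 8 of the 28 lay wholly higher in shRB, against 20.6% of all genes, and those of 3 wholly lower, against 15.4%. Of the 25 of these genes with a RefSeq promoter window, 17 held at least 1 of the E2F site forms given above. Over all genes with a window the share was 3.99%. The list was chosen as E2F targets, so its higher share is no separate result.

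Of 11 listed apoptosis genes linked to E2F, 6 were measured, 5 positive and 1 negative, with a median of 0.16 and 1 unadjusted p under 0.05. PMAIP1 (NOXA), a BH3-only protein, differed by 0.58 (adjusted p = 0.166). BBC3 (PUMA), a related BH3-only protein, differed by 0.25 (adjusted p = 0.647), TP73, the p73 gene, by 0.16 (adjusted p = 0.685) and MAP3K5, the stress kinase ASK1, by 0.15 (adjusted p = 0.73). The arrays of BBC3, TP73 and MAP3K5 overlapped between the groups, and TP73 lay near the floor, between 4.31 and 4.92. PMAIP1 and BBC3 passed without shControl replicate 1 (0.89, adjusted p = 0.0423, and 0.79, adjusted p = 0.0441), and in none of the other fits. The median of this list turned to -0.11 in that fit, so both its calls and its direction rest on that array. It was 0.31 without shControl replicate 2 and 0.26 without shRB replicate 3.

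Of 29 listed G2/M genes that DREAM binds, 24 were measured, 11 positive and 13 negative, with a median of -0.03 and 3 unadjusted p under 0.05. NEK2, a centrosomal kinase, differed by -0.45 (adjusted p = 0.171), CCNA2, cyclin A2, by -0.40 (adjusted p = 0.218), PRC1, a spindle midzone protein, by -0.39 (adjusted p = 0.229), and CDC20, an activator of the anaphase-promoting complex, by 0.31 (adjusted p = 0.305). The median was -0.12 without shControl replicate 1, -0.10 with dim genes left out and 0.0012 without shRB replicate 1. The arrays of 6 of the 24 lay wholly lower in shRB, against 15.4% of all genes, and those of 1 wholly higher, against 20.6%.

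**Figure D4:**
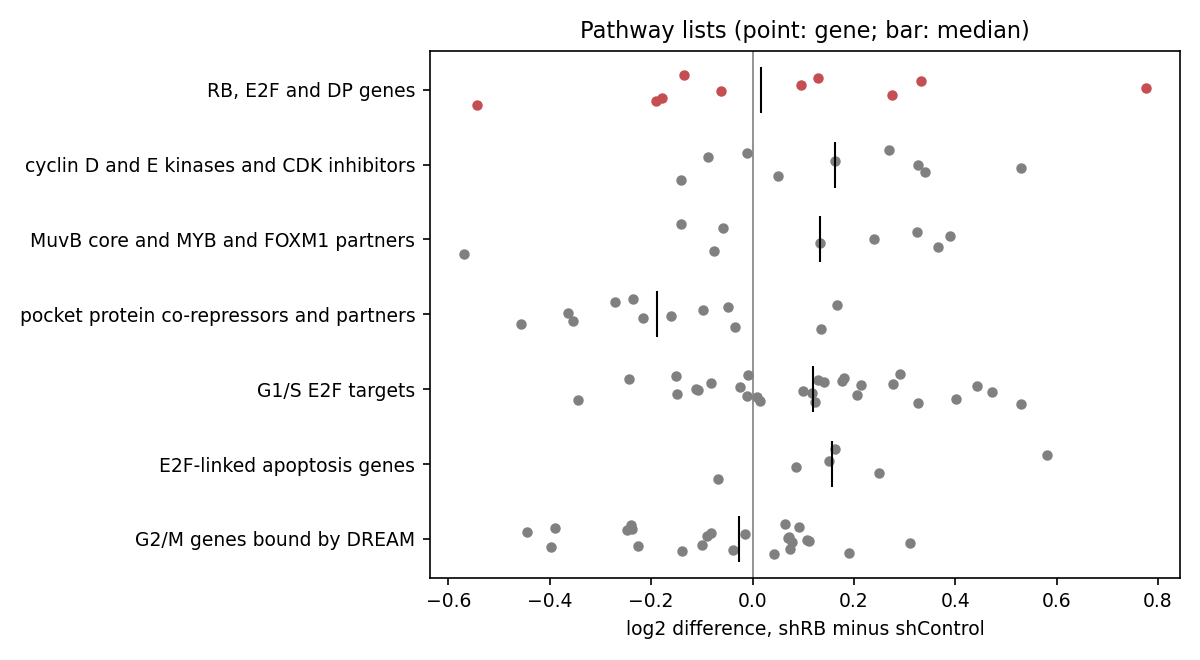
Log2 difference between shRB and shControl (x axis) for the 10 RB, E2F and DP genes (red) and for the measured genes of 6 pathway lists (grey); each point is 1 gene and the bar is the median of the list. Medians lie between -0.19 (co-repressors and partners) and 0.16 (cyclin D and E kinases and CDK inhibitors), and CCNE1 and CCNE2 appear in the cyclin list and in the G1/S list.

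The arrays themselves were alike in median level, with median intensities of 26.65 to 28.06 over all probe sets, and the number of arrays limits the precision. On shControl replicate 1, 4.56% of probe sets lay almost at the floor of 16, against 1.98% to 2.73% on the other arrays. Correlations of log2 intensities across genes were 0.983 to 0.986 among the shRB arrays and 0.967 between the shControl arrays, and genes are not independent replicates. Pairs of arrays from different groups correlated at 0.955 to 0.970, a range that holds the value of the shControl pair. Of 13 luminal prostate markers 7 were measured, with mean log2 levels from 6.33 to 10.13, among them KLK3, which encodes prostate-specific antigen. The 4 measured neuroendocrine and 2 stromal markers, led by INSM1 and DCN, all had means under a log2 of 5. The highest marker of the basal list was KRT5, of the leukocyte list CD68 and of the endothelial list VWF. No marker was called. Within every list but the leukocyte list, members differed in opposite directions. In the endothelial list VWF differed by -0.65 (adjusted p = 0.164) and EMCN, the other marker, by 0.56 (adjusted p = 0.106). In the basal list KRT15 differed by -0.40 (adjusted p = 0.206) and KRT5 by 0.19 (adjusted p = 0.616). The summed level of each of the 6 lists, as log2 with 16 subtracted per gene and 4 added to the sum, overlapped between the groups. The luminal sum was 11.67 to 11.76 in shControl and 11.65 to 11.69 in shRB. The endothelial sum was 5.91 to 6.23 and 4.94 to 5.98, the basal sum 5.55 to 6.04 and 5.52 to 6.03, and the leukocyte sum 6.32 to 7.12 and 6.87 to 7.13. The neuroendocrine sum was 5.13 to 5.65 and 5.14 to 5.46, and the stromal sum 3.78 to 3.88 and 3.30 to 3.83. The part of these markers in the results was not tested.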

How the data were processed

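The authors deposited linear intensities for 44607 probe sets on each of 5 arrays. How they summarised, background-corrected and normalized them, and with which software and build, is not given in the sources used here. The lowest value of each array lay just above 16, a floor of unstated origin which can compress fold changes of dim probe sets. Of the probe sets, 15835 carried 1 gene symbol in the platform annotation (0 carried several and 28772 none), and all were matched by Entrez identifier to NCBI RefSeq (GRCh38.p14). The probe set with the highest mean was kept for each of 14812 genes, for 651 of them out of several. The 2 groups were contrasted on log2 intensities by limma 3.58.1 (R 4.3.3; lmFit and eBayes without covariates). The test was two-sided, and p-values were adjusted by Benjamini-Hochberg over all genes, with a threshold of 0.05. Every adjusted p comes from this test unless a permutation test is named. On simulated data for this comparison, 10 sets of 14812 genes with 200 changed, the test recovered 22.7% of log2 changes of 0.5 and 96.9% of log2 changes of 1. These shares are averages over randomly drawn genes. They hold for 200 changed genes, because the adjusted cut-off depends on how many genes change. In the data 18.1% of genes had an unadjusted p under 0.05 in limma's test, so the shares may not carry over. The simulated noise was normal, with variances as moderated by limma, and no floor was applied. The shares can therefore be lower for dim genes and for genes with a wide spread, such as E2F3.

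The members, lists and tests were chosen with earlier results of these data known. The text names every member and, of each list, the up to 4 genes with the smallest p, with KLK3 and the highest marker of each other cell type; further markers in that rule are not reported here. Alternatives were quantile normalization, array medians subtracted, dim genes left out (mean below the median gene), the mean of a gene's probe sets, every probe set on its own, array weights, robust variances with an intensity trend, 16 subtracted and 4 added before the logarithm, the replicate number as a block, and each array left out.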

Additional observations from a re-analysis of the deposited data

How the results depend on the processing

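Of 138 refits of the 10 genes under 14 alternatives, 131 kept the sign and the side of the threshold. This count is no measure of robustness, because some refits could not change the sign. With 1 probe set per member, the mean of probe sets and every probe set on its own left the estimates unchanged. So did leaving out dim genes and the intensity trend with robust variances. The replicate block gave the same estimates as leaving out shRB replicate 3. With dim genes left out, RB1 (-0.54, adjusted p = 0.0489) and E2F3 (0.78, adjusted p = 0.0438) passed, so 1 member was called higher and 1 lower, and E2F2 and E2F8 were not in that fit. With an intensity trend and robust variances E2F3 passed (0.78, adjusted p = 0.0409), again 1 member called higher. DYRK1A was the 1 gene of the MuvB list called in each of these settings, and EID1 the 1 co-repressor called in the latter. The sign turned for E2F2 with the replicate number as a block (0.12), without shRB replicate 3 (0.12) and without shControl replicate 1 (0.0022), and for TFDP2 without shControl replicate 2 (0.0061). With each array left out, differences ran from -0.60 to -0.49 for RB1, 0.54 to 1.01 for E2F3, -0.18 to 0.12 for E2F2 and -0.28 to 0.01 for TFDP2, and calls in the apoptosis list from 0 to 2. Where 1 shControl array was left, it was assumed to vary like the shRB arrays.

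The labels number arrays 1 and 2 in both groups. Deviations from the group means of same-numbered arrays correlated at -0.02 and 0.05, so the numbers were not taken to pair them. With the replicate number as a block RB1 differed by -0.53 and E2F3 by 0.66, and shRB replicate 3, without a partner, no longer bears on the estimate. Over all genes the test called 159, of which 64.8% were higher. The count was 426 with a trend and robust variances, 385 with dim genes left out, 88 with array weights, 24 with the block and 13 with 16 subtracted and 4 added (30.8% higher). Leaving out an array gave 22 to 411. The cause of these shifts was not tested. Signals near the floor limit what can be read of E2F2, CDKN2A, MYBL1, TP73 and EMCN, and the control values of E2F8 were low as well.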
